A study of Danio rerio with 16 samples.

Results

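The 10 genes described here belong to the netrin and Slit systems of axon guidance: the ligands ntn1a, ntn1b, slit2 and slit3 and the receptors dcc, neo1a, unc5b, robo1, robo2 and robo3. They were taken by name from a count table of 32520 genes measured in whole zebrafish embryos. All 10 were among the 20098 genes with enough counts to be tested. The genes were selected on results from these same counts, and which comparison between the 4 groups prompted the choice is not recorded. Their levels and fold changes are therefore given as a description. Whether a value passed the threshold of the fit over all genes is stated for them, but this is no independent test of genes selected in this way, and no p-value is printed for them.

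Netrins and Slits are secreted proteins that steer growing axons. In the developing spinal cord, netrin-1 from the floor plate attracts commissural axons through the receptor DCC, while receptors of the UNC5 family turn the response to netrin into repulsion. Slit proteins from the midline repel axons that carry Robo receptors and keep axons that have crossed from crossing back. Robo3 is needed for crossing itself. In zebrafish, robo2 mutants (astray) show errors of retinal axons and robo3 mutants show errors of commissural axons. Both systems also act outside the nervous system, for example in blood vessels.

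RNA came from pools of 9 embryos, each pool raised in its own dish and collected at 48 hours post fertilization (hpf). The groups were a wfikkn1 mutant line with TCDD (n = 4), the mutant line with DMSO (n = 4), Tropical 5D wild type with TCDD (n = 3) and Tropical 5D wild type with DMSO (n = 3). Exposure lasted 1 h at 4 hpf, to TCDD at 1 ng/mL or to the vehicle DMSO at 0.1%. TCDD, or 2,3,7,8-tetrachlorodibenzo-p-dioxin, is a ligand of the aryl hydrocarbon receptor, and the wfikkn1 product is secreted and holds a netrin-like domain among others. The labels give neither the allele nor whether all mutant pools descend from 1 founder. In comparisons of the lines, the mutation and any other difference between the lines cannot be told apart. For wild type, replicate 2 of either exposure was not analysed here. The p-values below set a difference between groups against the spread between pools of embryos, estimated over all groups together. In whole embryos, fewer cells of a type and less RNA per cell cannot be told apart.

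Library totals ran from 20597475 to 26884477 counts. The mutant libraries held 14, 15, 21 and 22 wfikkn1 counts with TCDD and 0, 0, 4 and 3 in DMSO, and the wild-type libraries held 214, 454 and 520 with TCDD and 10, 12 and 19 in DMSO. Within each exposure, every mutant library lay below every wild-type library, as labelled. The AHR target cyp1a averaged 4968 ± 288 CPM in mutant TCDD, 16.7 ± 2.38 in mutant DMSO, 3137 ± 47 in wild-type TCDD and 19.6 ± 2.2 in wild-type DMSO libraries (SD). CPM is the count scaled to library size with TMM factors. It is not divided by gene length, so levels are compared between libraries and not between genes.

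The netrin-1 ligands behaved unlike each other. ntn1a (ENSDARG00000105112) had 32.7, 28.8, 31.3 and 28.0 CPM in the mutant TCDD libraries, against 49.4, 40.8, 38.7 and 43.3 CPM in the mutant DMSO libraries. It had 26.5, 20.5 and 21.8 CPM in the wild-type TCDD libraries, against 23.0, 26.5 and 19.6 CPM in the wild-type DMSO libraries. Every mutant library thus lay above every wild-type library, the mutant DMSO libraries were highest, and the wild-type groups overlapped. On the log2 scale, mutant over wild type was 0.40 ± 0.12 (SE) with TCDD and 0.90 ± 0.12 in DMSO, and TCDD over DMSO was -0.51 ± 0.11 in mutants and -0.0052 ± 0.13 in wild type. The first 3 of these values were called, that is, the p of edgeR's quasi-likelihood test was under 0.05 after adjustment over all 20098 genes. The call for mutant over wild type with TCDD ended without wild-type TCDD replicate 3 (0.32) or 4 (0.36), or without mutant TCDD replicate 1 (0.36) or 3 (0.37). The difference between the TCDD effects, -0.51 ± 0.17, was not called, but came past the threshold without wild-type DMSO replicate 3 (-0.62), wild-type TCDD replicate 3 (-0.59) or mutant DMSO replicate 3 (-0.56).

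ntn1b (ENSDARG00000022531) had 115.8, 107.3, 119.5 and 114.7 CPM in the mutant TCDD libraries, against 126.9, 135.5, 132.9 and 124.5 CPM in the mutant DMSO libraries. It had 118.4, 117.2 and 119.0 CPM in the wild-type TCDD libraries, against 137.4, 157.8 and 115.9 CPM in the wild-type DMSO libraries. The mutant groups did not overlap, but the TCDD value in mutants, -0.18 ± 0.08, was not called, and no other comparison of ntn1b was called either. It came past the threshold in mutants without wild-type DMSO replicate 3 (-0.21) or 4 (-0.21), and in wild type without wild-type DMSO replicate 4 (-0.36). ntn1a and ntn1b are paralogs, as are the Robo genes, so reads could be assigned to the wrong copy, and their split is uncertain to that extent.

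As a share of the counts of both netrin-1 copies, ntn1a took 20.9% ± 0.996 in mutant TCDD (SD, n = 4), 24.9% ± 2.53 in mutant DMSO (SD, n = 4), 16.2% ± 1.8 in wild-type TCDD (SD, n = 3) and 14.4% ± 0.0469 in wild-type DMSO libraries (SD, n = 3). The lowest share in a mutant library was 19.6% and the highest in a wild-type library was 18.3%. Each mutant library thus had a larger share than each wild-type library, at both exposures.

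**Figure D1:**
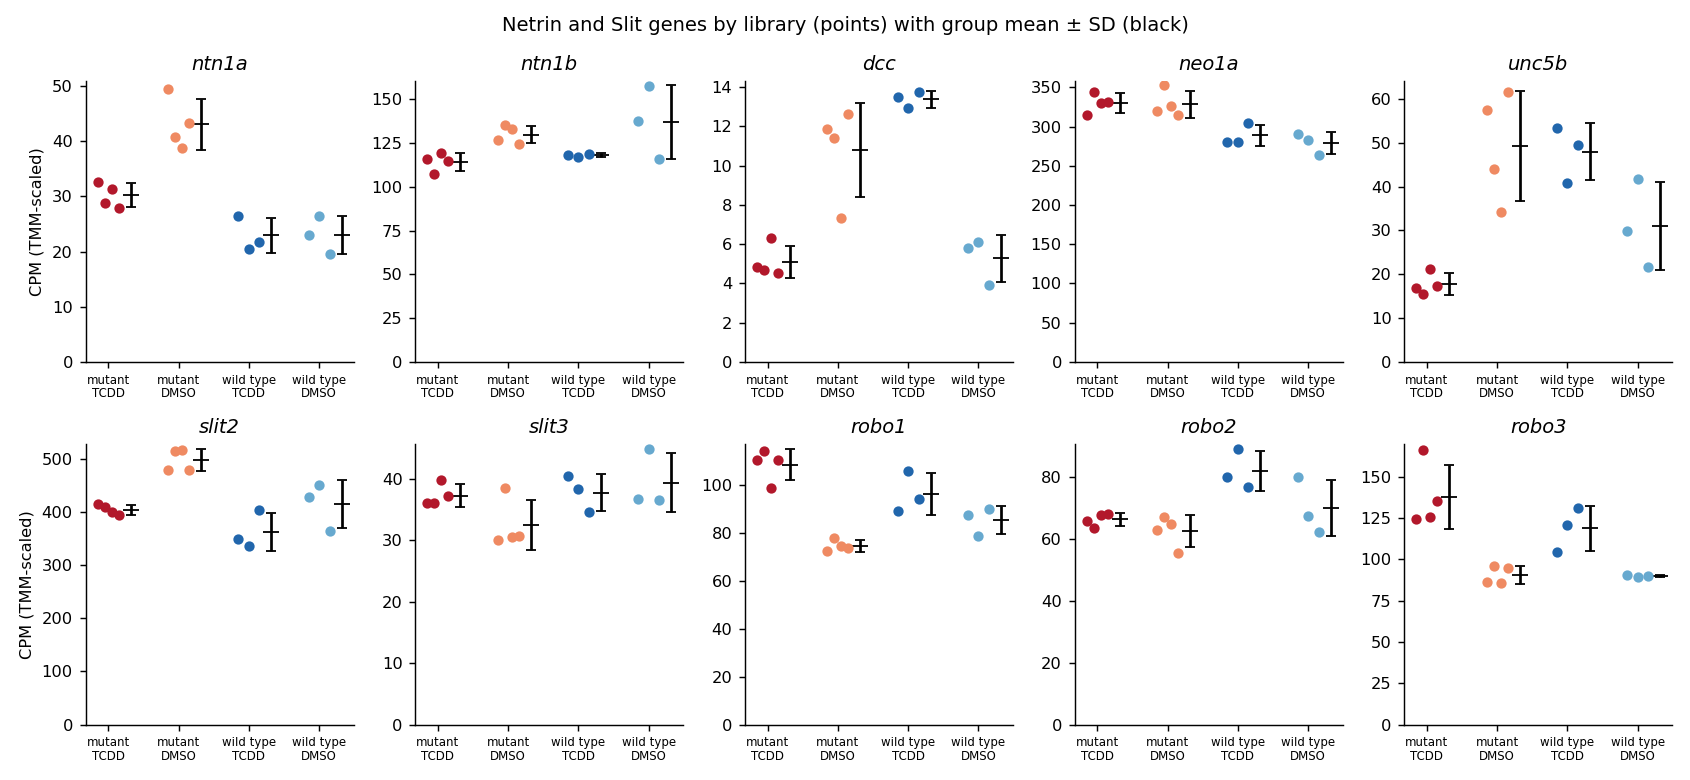
Level of each of the 10 genes in CPM, scaled by TMM, in the 14 libraries, with 1 panel a gene and its own axis from 0. Points are libraries and black bars are group means with SD (n = 4 for the mutant groups and n = 3 for the wild-type groups). dcc and unc5b are low in mutant TCDD libraries (means 5.08 and 17.8 CPM) and high in mutant DMSO (10.8 and 49.3) and wild-type TCDD libraries (13.4 and 48.0). In wild-type DMSO libraries dcc is also low, from 3.92 to 6.12 CPM, and unc5b runs from 21.6 to 41.7 CPM.

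Among the 3 netrin receptors, dcc and unc5b moved more than neo1a, and their TCDD effects differed between the lines. dcc (ENSDARG00000104282), the receptor of netrin attraction, had 4.82, 4.68, 6.30 and 4.54 CPM in the mutant TCDD libraries, against 11.9, 11.4, 7.31 and 12.7 CPM in the mutant DMSO libraries. It had 13.5, 12.9 and 13.8 CPM in the wild-type TCDD libraries, against 5.78, 6.12 and 3.92 CPM in the wild-type DMSO libraries. None of these pairs of groups overlapped. With TCDD, dcc was 2.13-fold lower in mutants (-1.09 ± 0.18) and 2.54-fold higher in wild type (1.34 ± 0.21). Mutant over wild type was -1.40 ± 0.19 with TCDD and 1.03 ± 0.20 in DMSO, so the order of the lines depended on the exposure. The TCDD effect in mutants minus that in wild type was -2.43 ± 0.27. All 5 values were called, also with each of the 14 libraries left out in turn. With a score for variation within groups as a term, described below, the TCDD value in mutants (-0.45) and the difference (-1.33) were not called.

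unc5b (ENSDARG00000033327), a receptor of netrin repulsion that is also known from blood vessels, had 16.8, 15.6, 21.2 and 17.4 CPM in the mutant TCDD libraries, against 57.4, 44.0, 34.2 and 61.5 CPM in the mutant DMSO libraries. It had 53.5, 40.8 and 49.6 CPM in the wild-type TCDD libraries, against 29.8, 41.7 and 21.6 CPM in the wild-type DMSO libraries. Each mutant TCDD library lay below each of the other 10 libraries. With TCDD, unc5b was 2.78-fold lower in mutants (-1.47 ± 0.19), and the value in wild type, 0.63 ± 0.22, was not called. Mutant over wild type was -1.43 ± 0.20 with TCDD and 0.67 ± 0.21 in DMSO, both called, although the ranges overlapped in DMSO. The TCDD effect in mutants minus that in wild type was called, at -2.10 ± 0.29.

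Single libraries decided some of the smaller unc5b values. The call in DMSO ended without wild-type DMSO replicate 1 (0.65) or 4 (0.45), or without mutant DMSO replicate 1 (0.58) or 4 (0.54). The TCDD value in wild type came past the threshold without wild-type DMSO replicate 3 (0.87) or mutant DMSO replicate 3 (0.63), and was 0.38 without wild-type DMSO replicate 4. The TCDD values in mutants, between -1.62 and -1.35, were called in all 14 of these fits.

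neo1a (ENSDARG00000102855), a neogenin that binds netrins and repulsive guidance molecules, was higher in mutants than in wild type by a small amount. It had 314.3, 344.3, 330.7 and 331.8 CPM in the mutant TCDD libraries, against 319.6, 353.6, 326.0 and 315.1 CPM in the mutant DMSO libraries. It had 281.0, 281.0 and 304.3 CPM in the wild-type TCDD libraries, against 291.0, 282.8 and 263.6 CPM in the wild-type DMSO libraries. The mutant libraries lay above the wild-type libraries at both exposures, and neither line showed a called TCDD effect (0.01 ± 0.06 in mutants and 0.05 ± 0.07 in wild type). Mutant over wild type was 0.19 ± 0.07 with TCDD and 0.24 ± 0.07 in DMSO, both called. The call in DMSO ended without wild-type DMSO replicate 4 (0.19) or mutant DMSO replicate 2 (0.20). The call with TCDD ended without any 1 of 8 libraries (0.17 to 0.20), which were mutant TCDD replicates 2, 3 and 4, mutant DMSO replicates 3 and 4, wild-type TCDD replicates 1 and 3 and wild-type DMSO replicate 3.

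Of the Slit ligands, slit2 was lower with TCDD in mutants and slit3 was called in no comparison. slit2 (ENSDARG00000004246) had 414.5, 409.9, 399.6 and 394.5 CPM in the mutant TCDD libraries, against 479.6, 516.0, 516.8 and 480.3 CPM in the mutant DMSO libraries. It had 349.8, 335.5 and 403.2 CPM in the wild-type TCDD libraries, against 428.3, 451.6 and 365.1 CPM in the wild-type DMSO libraries. The mutant groups did not overlap and the wild-type groups did. TCDD over DMSO was -0.30 ± 0.07 in mutants, which was called, and -0.19 ± 0.09 in wild type, which was not. Mutant over wild type was 0.16 ± 0.08 with TCDD, which was not called, and 0.26 ± 0.08 in DMSO, which was. The call in DMSO ended without wild-type DMSO replicate 1 (0.30) or 4 (0.17), or without any 1 of the 4 mutant DMSO libraries (0.25 to 0.28), and the TCDD value in wild type was called without wild-type DMSO replicate 4 (-0.32).

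slit3 (ENSDARG00000034268) had 36.0, 36.0, 39.8 and 37.1 CPM in the mutant TCDD libraries, against 30.0, 38.5, 30.5 and 30.6 CPM in the mutant DMSO libraries. It had 40.4, 38.3 and 34.5 CPM in the wild-type TCDD libraries, against 36.6, 44.8 and 36.5 CPM in the wild-type DMSO libraries. Both pairs overlapped, the mutant pair through the single mutant DMSO library at 38.5 CPM. The fold changes ran from -0.28 ± 0.11 for mutant over wild type in DMSO to 0.20 ± 0.10 for TCDD in mutants. Without mutant DMSO replicate 2, these values were -0.37 and 0.29 and were called.

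The Robo receptors showed more RNA with TCDD in mutants for robo1 and robo3, but not for robo2. robo1 (ENSDARG00000026784), a Slit receptor, had 110.6, 114.1, 99.0 and 110.5 CPM in the mutant TCDD libraries, against 72.3, 78.1, 74.5 and 73.9 CPM in the mutant DMSO libraries. It had 89.2, 106.1 and 94.0 CPM in the wild-type TCDD libraries, against 87.6, 78.9 and 90.1 CPM in the wild-type DMSO libraries. The mutant groups lay far apart, with the mutant DMSO libraries below all others, and the wild-type groups overlapped. TCDD over DMSO was 0.54 ± 0.07 in mutants, a 1.45-fold rise, and 0.17 ± 0.09 in wild type, which was not called. The difference between these effects, 0.37 ± 0.11, was called. That call ended, at 0.31 to 0.38, without any 1 of 10 libraries: mutant TCDD replicates 1, 2 and 4, mutant DMSO replicates 2, 3 and 4, wild-type TCDD replicates 1 and 4 and wild-type DMSO replicates 1 and 4.

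robo3 (ENSDARG00000005645), the receptor needed for midline crossing, was the one Robo gene called in both lines. It had 124.4, 165.9, 125.7 and 135.4 CPM in the mutant TCDD libraries, against 86.2, 95.9, 85.8 and 95.0 CPM in the mutant DMSO libraries. It had 104.3, 120.8 and 130.9 CPM in the wild-type TCDD libraries, against 90.3, 89.1 and 89.7 CPM in the wild-type DMSO libraries. Each TCDD library of either line thus exceeded every DMSO library, and in DMSO the mean was 90.7 CPM in mutants and 89.7 CPM in wild type. TCDD over DMSO was 0.60 ± 0.09 in mutants, or 1.52-fold, and 0.40 ± 0.11 in wild type, or 1.32-fold. The difference between them, 0.20 ± 0.14, was not called, and neither comparison of the lines was called. The wild-type call ended without wild-type DMSO replicate 1 (0.39) or 4 (0.36), or without wild-type TCDD replicate 3 (0.39) or 4 (0.33).

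robo2 (ENSDARG00000014891), the astray receptor, had 66.0, 63.5, 67.9 and 68.0 CPM in the mutant TCDD libraries, against 63.0, 67.1, 64.9 and 55.5 CPM in the mutant DMSO libraries. It had 80.0, 89.2 and 76.9 CPM in the wild-type TCDD libraries, against 80.1, 67.4 and 62.4 CPM in the wild-type DMSO libraries. Its one called value was mutant over wild type with TCDD, -0.31 ± 0.09, where the groups did not overlap. That call ended without wild-type TCDD replicate 3 (-0.25), mutant DMSO replicate 1 (-0.25) or mutant TCDD replicate 2 (-0.29). A second row of the table carries the symbol robo2 in the authors' deposited tables (ENSDARG00000078366), where it is paired with human ROBO1. It averaged 26.8 ± 2.76 CPM in mutant TCDD and 20.6 ± 3.18 in mutant DMSO libraries (SD, n = 4 each), and 26.6 ± 1.91 in wild-type TCDD and 20.6 ± 1.08 in wild-type DMSO libraries (SD, n = 3 each). Its TCDD value was 0.38 ± 0.11 in mutants, which was called, and 0.37 ± 0.13 in wild type, which was not. It was not counted among the 10, since which gene it is remains uncertain.

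**Figure D2:**
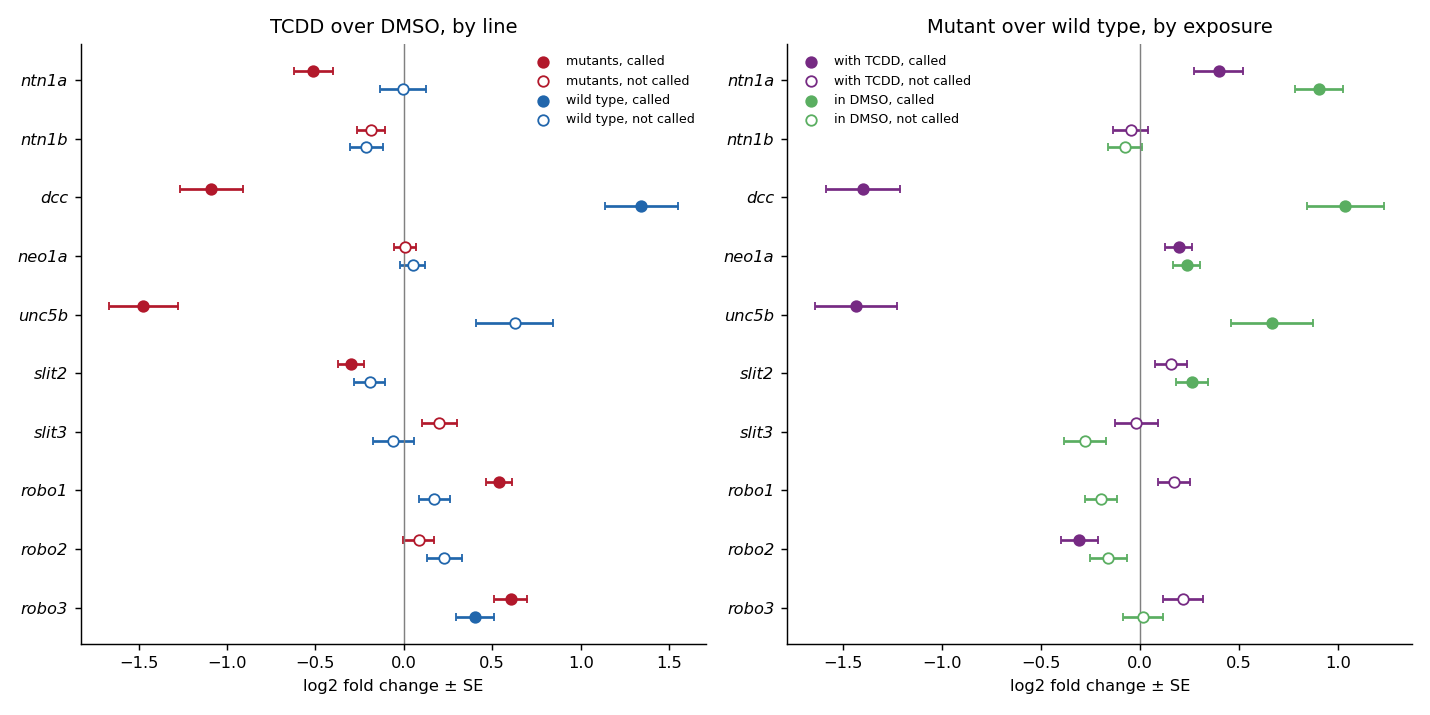
Log2 fold changes of the 10 genes with SE, for TCDD over DMSO in mutants and wild type on the left and for mutant over wild type with TCDD and in DMSO on the right. Filled points are called and open points are not. The TCDD effect on dcc stands on opposite sides of 0 in mutants (-1.09) and wild type (1.34), and so does mutant over wild type with TCDD (-1.40) and in DMSO (1.03).

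Counted over the 10 genes, TCDD in mutants gave 6 calls, of which 2 were higher (robo1 and robo3) and 4 lower (dcc, unc5b, ntn1a and slit2). Of all tested genes, 36.1% were called in that comparison, 17.5% higher and 18.6% lower. TCDD in wild type gave 2 calls, both higher (dcc and robo3), where 14.6% of all tested genes were called, 8.84% higher and 5.75% lower. With TCDD, the comparison of mutant over wild type gave 5 calls, with neo1a and ntn1a higher and dcc, unc5b and robo2 lower, where 27.6% of all tested genes were called, 10.7% higher and 16.9% lower. In DMSO, the comparison of the lines gave 5 calls, all higher (dcc, unc5b, ntn1a, neo1a and slit2), where 16.8% of all tested genes were called, 8.21% higher and 8.6% lower. The difference between the TCDD effects gave 3 calls, dcc and unc5b lower and robo1 higher, where 12% of all tested genes were called, 1.85% higher and 10.2% lower. Since the genes were chosen with these counts in view, nothing is read from the shares.

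The median log2 fold change of the 10 genes was -0.09 for TCDD in mutants and 0.11 for TCDD in wild type, beside 0.0045 and 0.03 over all tested genes. It was 0.07 for mutant over wild type with TCDD and 0.13 in DMSO, beside 0.0017 over all tested genes in both. For the difference between the TCDD effects it was -0.07, beside 0.05 over all tested genes. The groups did not overlap for 7 of the 10 genes for TCDD in mutants, where 37.3% of all tested genes did not overlap. They did not overlap for 2 genes for TCDD in wild type (27.6% of all tested genes), 5 for mutant over wild type with TCDD (37.1%) and 5 in DMSO (23.6%). The comparisons share groups of libraries and are not independent of each other.

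Across the 14 libraries, the log2 CPM of dcc ran most closely with that of unc5b among the 10 genes (Pearson r = 0.889), and that of robo1 with that of robo3 (r = 0.875). ntn1a ran most closely with slit2 (r = 0.787). The least alike pair was unc5b and robo1 (r = -0.744). These values describe 14 libraries that share 4 groups. Other profiles were sought among tested genes whose log2 CPM averaged 1 or more, leaving out genes with clone, contig or locus names. Of these, the profile most like that of dcc was that of myo10l3 (r = 0.981), followed by spred2b (r = 0.98). The profiles most like that of unc5b were those of col4a1, a basement membrane collagen, and adam12 (r = 0.988 each). Those most like robo3 were reck (r = 0.969) and rrp12 (r = 0.967), those most like robo1 were ctnnb2 (r = 0.975) and ctsk (r = 0.957), and those most like ntn1a were mul1a (r = 0.973) and bco2a (r = 0.942). For neo1a they were tbx6 (r = 0.933) and appl2 (r = 0.932), for ntn1b PPM1K (r = 0.943) and tmc5 (r = 0.936), and for slit2 smtnb (r = 0.941) and plcd4a (r = 0.938). Among the genes searched, robo2 and slit3 had no profile as close, with 0.9 for cnot6l and 0.839 for sgca at the top.

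Libraries of the same group differed along a shared axis, and dcc and unc5b ran with it. The axis is the first component of the deviations of 15143 genes from their group means and held 28.8% of that variance. Library scores on it ran from -28.9 to -11.1 in mutant TCDD, from -8.48 to 30.4 in mutant DMSO, from 14.8 to 28.1 in wild-type TCDD and from -40.3 to 10.7 in wild-type DMSO. The mutant TCDD library with the highest score, replicate 3, had the highest dcc and unc5b of its group (6.30 and 21.2 CPM). The mutant DMSO library with the lowest score, replicate 3, had the lowest of its group (7.31 and 34.2 CPM). The wild-type DMSO library with the lowest score, replicate 4, also had the lowest of its group (3.92 and 21.6 CPM). Ranked with its sign among the 15143 genes, the axis weight was at percentile 95.3 for dcc, 96.7 for unc5b, 87.7 for ntn1a and 28.7 for robo1. A low percentile is thus not by itself a small weight. The scores differ between the groups, and the 10 genes are themselves among the genes of the axis.

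With the score as a term in the fit, which also takes up part of any group difference along the axis, the difference between the TCDD effects was -1.33 for dcc, -0.76 for unc5b and 0.13 for robo1. None of these differences was called by edgeR, and 2 of the 10 genes had an unadjusted p under 0.05, again as a description. The TCDD effect on dcc was then -0.45 in mutants, no longer called, and 0.87 in wild type, still called. That on unc5b was -0.69 in mutants, still called, and 0.06 in wild type. Those on robo1 (0.41) and robo3 (0.57) in mutants stayed called, and that on robo3 in wild type (0.43) did not. Those on ntn1a (-0.21) and slit2 (-0.22) in mutants were no longer called, while mutant over wild type for ntn1a was 0.75 with TCDD and 0.71 in DMSO, both called. Mutant over wild type also stayed called for dcc, at -0.70 with TCDD and 0.63 in DMSO, and for unc5b with TCDD, at -0.58. Calls between the lines ended for neo1a (0.23 with TCDD and 0.22 in DMSO), robo2 (-0.28 with TCDD) and slit2 (0.22 in DMSO). The call of unc5b in DMSO (0.18) ended too. How many of all tested genes were called with the score as a term is not given here. The part of the axis in these results was not tested otherwise.

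**Figure D3:**
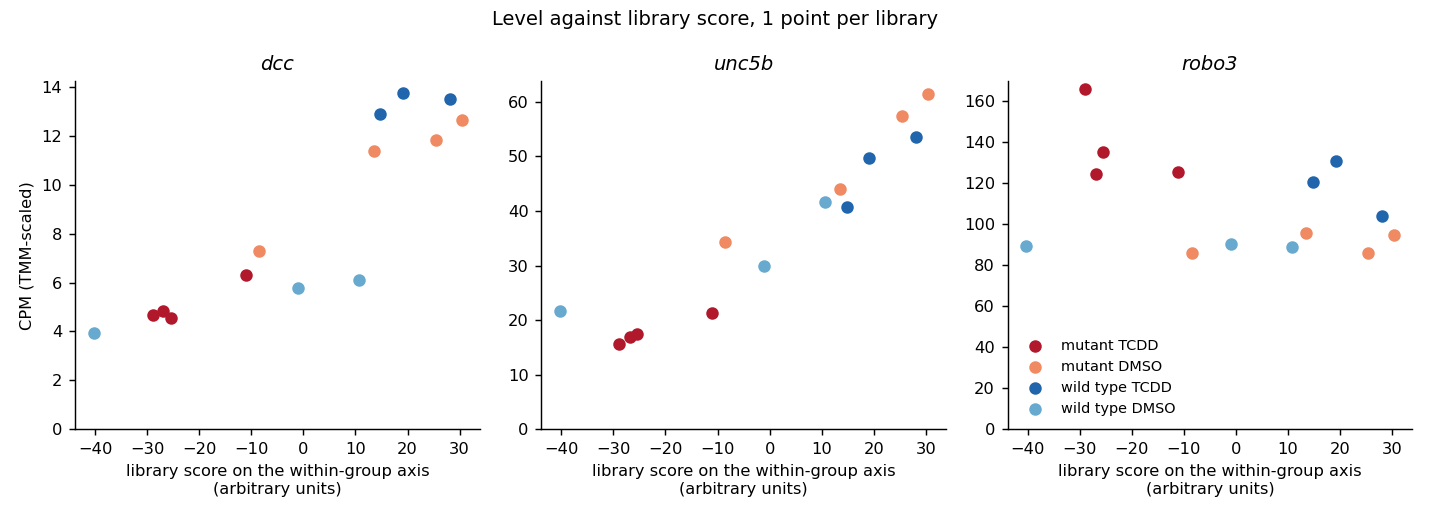
Level of dcc, unc5b and robo3 in CPM, scaled by TMM, against each library's score on the within-group axis in arbitrary units, 1 point per library, with the 4 groups in color. The libraries with scores below 0 have at most 7.31 CPM of dcc and 34.2 CPM of unc5b. Each TCDD library has more robo3 than each DMSO library. Within either line the scores of TCDD and DMSO libraries do not overlap, so the exposures cannot be compared at the same score.

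Other netrins, Slits and receptors of the same systems were taken as a list of 21 symbols, of which 20 had a row and 19 could be tested. This list and those below were also chosen with earlier results of these data known. Their adjusted p-values are therefore no independent test. Of the 19 genes, 4 had the pattern of dcc, lower with TCDD in mutants and higher with TCDD in wild type. With the library score as a term, however, none of their mutant values was called. ntn2, a further netrin ligand, had 10.7, 8.51, 14.6 and 13.4 CPM in the mutant TCDD libraries, against 20.5, 20.7, 14.4 and 23.0 CPM in the mutant DMSO libraries. It had 27.8, 25.2 and 24.6 CPM in the wild-type TCDD libraries, against 10.9, 14.1 and 7.75 CPM in the wild-type DMSO libraries. The wild-type groups lay apart, and the mutant groups overlapped through mutant DMSO replicate 3. TCDD over DMSO was -0.74 ± 0.19 in mutants (edgeR adjusted p = 0.00561) and 1.24 ± 0.22 in wild type (edgeR adjusted p = 0.00265).

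slit1a, another Slit ligand gene, had 103.6, 86.7, 163.0 and 122.7 CPM in the mutant TCDD libraries, against 212.3, 191.0, 147.3 and 218.9 CPM in the mutant DMSO libraries. It had 292.5, 257.2 and 311.1 CPM in the wild-type TCDD libraries, against 120.2, 174.1 and 76.5 CPM in the wild-type DMSO libraries. Again the wild-type groups lay apart and mutant DMSO replicate 3 fell among the mutant TCDD libraries. Its TCDD effect was -0.69 ± 0.21 in mutants (edgeR adjusted p = 0.0157) and 1.22 ± 0.24 in wild type (edgeR adjusted p = 0.0051). The call in mutants ended without mutant TCDD replicate 2 (-0.57, edgeR adjusted p = 0.0586). For unc5db, an UNC5 receptor, it was -1.34 ± 0.30 in mutants (edgeR adjusted p = 0.00272) and 1.40 ± 0.34 in wild type (edgeR adjusted p = 0.0133). For dscaml1, of the DSCAM family of which some members bind netrins, it was -1.75 ± 0.33 in mutants (edgeR adjusted p = 6.95e-04) and 1.94 ± 0.38 in wild type (edgeR adjusted p = 0.00454).

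TCDD effects differed between the lines by -1.98 ± 0.29 for ntn2 (edgeR adjusted p = 2.47e-04), -1.91 ± 0.32 for slit1a (6.24e-04), -2.74 ± 0.46 for unc5db (6.21e-04) and -3.69 ± 0.50 for dscaml1 (1.99e-04). These were the 4 calls among the 19 genes, all of them negative. Of all tested genes, 10.2% were called lower and 1.85% higher in this difference, so negative calls prevailed in general. The axis weights of these 4 genes stood at percentiles 95.8, 97.1, 98.8 and 99.3, as high as those of dcc and unc5b. With the library score as a term, none of the 4 differences was called by edgeR (3 of the 19 genes had an unadjusted p under 0.05), with values of -0.83, -0.56, -0.75 and -1.25, and the slit1a effect in mutants turned to 0.09. The TCDD effect in mutants was then -0.07 for ntn2, -0.15 for unc5db and -0.27 for dscaml1, none of them called. In wild type, that on unc5db (0.59) was not called either, while those on ntn2 (0.75), slit1a (0.65) and dscaml1 (0.98) stayed called. Without that term, all 4 differences stayed called with each library left out in turn.

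Others of the 19 genes moved in 1 direction. With TCDD, dscama was called higher and rgma lower in both lines. With the library score as a term, the rgma value in mutants stayed called (-0.28, edgeR adjusted p = 0.042). The rgma value in wild type (-0.20) and the dscama values in mutants (0.36) and wild type (0.24) did not. In mutants with TCDD, nell2a, a ligand of Robo3 in mammals, was higher by 0.44 ± 0.09 (edgeR adjusted p = 0.0012), unc5c by 0.61 ± 0.13 (0.00193) and slit1b by 0.35 ± 0.08 (0.00355). The value of nell2a in wild type was 0.03. With the library score as a term, the nell2a (0.26) and slit1b (0.30) calls in mutants ended. draxin, a secreted netrin-binding repellent, had -0.54 ± 0.16 in mutants (edgeR adjusted p = 0.0141) and -0.54 ± 0.18 in wild type (0.0588). With the library score as a term, it had -0.22 in mutants, not called (0.511), and -0.79 in wild type, called (0.0288), so which line passed the threshold depended on that term.

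**Figure D4:**
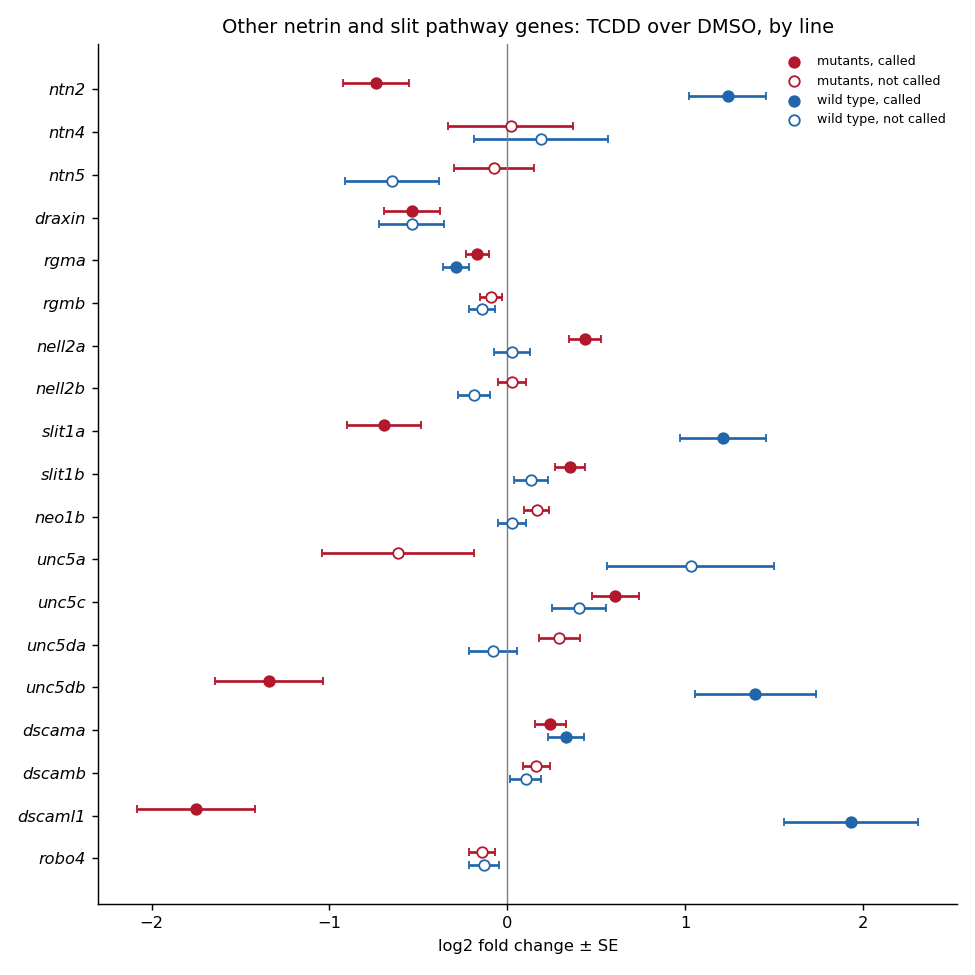
Log2 fold changes of TCDD over DMSO with SE for the 19 other netrin and Slit pathway genes, in mutants and in wild type. Filled points are called by edgeR after adjustment over all tested genes and open points are not. ntn2, slit1a, unc5db and dscaml1 stand below 0 in mutants and above 0 in wild type.

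Over the 19 genes, TCDD in mutants gave 10 calls, 4 higher and 6 lower, with a median of -0.08. TCDD in wild type gave 6 calls, 5 higher and 1 lower, with a median of 0.11. Mutant over wild type gave 6 calls with TCDD, 1 higher and 5 lower, with a median of 0.05, and 2 calls in DMSO, both higher (ntn2 and dscaml1), with a median of 0.06. The median of the difference between the TCDD effects was 0.05, beside 0.05 over all tested genes. The shares of all genes called are those given above.

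The cytoplasmic partners of these receptors, a list of 31 tested genes, gave 21 calls for TCDD in mutants (13 higher and 8 lower) and 9 in wild type (6 higher and 3 lower), where 36.1% and 14.6% of all tested genes were called. The medians were 0.12 in mutants and 0.0059 in wild type. srgap1a, a GTPase-activating protein that binds Robo, had a TCDD effect of -1.37 ± 0.21 in mutants (edgeR adjusted p = 1.54e-04) and 1.00 ± 0.24 in wild type (0.0115). trioa, an exchange factor that acts below DCC, had -1.25 ± 0.21 in mutants (edgeR adjusted p = 3.08e-04) and 1.01 ± 0.24 in wild type (0.0116). These effects differed between the lines by -2.37 ± 0.32 for srgap1a (edgeR adjusted p = 1.99e-04) and -2.26 ± 0.32 for trioa (2.29e-04), and neither was called with the library score as a term (-0.91 and -0.70). With that term, the trioa effect was -0.33 in mutants and 0.37 in wild type, neither called, and the srgap1a effect was -0.51 in mutants, still called, and 0.40 in wild type, not called. srgap3, of the same family as srgap1a, varied widely within groups, at 4.57 ± 1.23 CPM in mutant TCDD and 32.1 ± 23.9 in mutant DMSO (SD, n = 4 each), and 55.8 ± 29.5 in wild-type TCDD and 8.01 ± 2.91 in wild-type DMSO libraries (SD, n = 3 each). usp33, a deubiquitinase that binds Robo1, was higher with TCDD in mutants (0.58 ± 0.07, edgeR adjusted p = 2.95e-05) and in wild type (0.33 ± 0.08, 0.0135).

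Other families of guidance genes were taken as lists for comparison, and calls with TCDD were mostly lower in mutants and mostly higher in wild type. With TCDD, calls among 27 semaphorin, neuropilin and plexin genes were 5 higher and 11 lower in mutants, and 12 were called in wild type, all of them higher, where 36.1% and 14.6% of all tested genes were called. Their median log2 fold change was -0.21 in mutants and 0.43 in wild type. The lines differed in the TCDD effect for 13 of them, all negative, with a median of -0.49 beside 0.05 over all tested genes. Over all tested genes, 10.2% were called lower and 1.85% higher in that difference, so that negative calls prevailed in general. nrp1b, a semaphorin co-receptor, had a difference of -1.39 ± 0.19 (edgeR adjusted p = 1.99e-04). Among 25 ephrin and Eph receptor genes, TCDD gave 3 higher and 12 lower calls in mutants, 5 higher and 1 lower in wild type, and the difference was called for 8, all negative, beside the same shares of all tested genes. The medians were -0.25 in mutants and 0.11 in wild type. epha4b had a TCDD effect of -2.16 ± 0.30 in mutants (edgeR adjusted p = 6.56e-05) and 1.47 ± 0.32 in wild type (0.00752). With the library score as a term, the nrp1b and epha4b differences were not called (-0.69 and -1.61), and the epha4b effect was -0.98 in mutants, still called, and 0.63 in wild type, not called.

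Markers of cells that make or read these cues were summed per library. Over 21 neuron markers, the summed CPM ran from 7061 to 7466 in mutant TCDD and from 8195 to 8749 in mutant DMSO, and from 7135 to 7671 in wild-type TCDD and from 8184 to 8866 in wild-type DMSO libraries. The neuron sum was thus lower with TCDD in both lines. Its relation to the values of dcc was not tested. Of the neuron markers, 5 were higher and 5 lower with TCDD in mutants, and 1 was higher and 3 were lower in wild type. Over all tested genes, 36.1% were called with TCDD in mutants and 14.6% in wild type. The medians of the neuron markers were -0.08 and -0.13. dpysl3, a protein of growing axons, was lower in mutants (-0.44 ± 0.06, edgeR adjusted p = 7.99e-05) and in wild type (-0.48 ± 0.07, 9.81e-04). nefma, a neurofilament gene, was higher in mutants (1.06 ± 0.12, edgeR adjusted p = 1.78e-05) and in wild type (0.64 ± 0.14, 0.0079).

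Over 10 floor plate and midline markers, the sum ran from 236.9 to 284 CPM in mutant TCDD, 220.2 to 270.9 in mutant DMSO, 251.1 to 291.6 in wild-type TCDD and 246 to 339.3 in wild-type DMSO libraries, so that all groups overlapped. TCDD gave 3 higher calls and 1 lower call among them in mutants and 1 higher call in wild type. For this and the next marker lists, 36.1% of all tested genes were called with TCDD in mutants and 14.6% in wild type. shha, which marks the floor plate and notochord, had less RNA in DMSO-exposed mutants than in DMSO-exposed wild type (-1.07 ± 0.29, edgeR adjusted p = 0.0199). It was the only 1 of these 10 markers called between the lines in DMSO, where 16.8% of all tested genes were called. The median of the 10 markers in that comparison was -0.16. That shha call ended without wild-type DMSO replicate 3 (-0.84) or mutant DMSO replicate 4 (-0.95). Over the vascular endothelial markers, the sum ran from 309.2 to 332 CPM in mutant TCDD, 371.6 to 407.6 in mutant DMSO, 375.7 to 417.2 in wild-type TCDD and 336 to 390.9 in wild-type DMSO libraries. The mutant TCDD libraries were below all others in this sum, though narrowly, with 332 CPM at most against 336 in the lowest wild-type DMSO library. Of the 10 tested, 4 were higher and 4 lower with TCDD in mutants, and 1 was higher in wild type, with medians of -0.0068 and 0.20. stab1, an endothelial scavenger receptor, had a TCDD effect of -1.12 ± 0.13 in mutants (edgeR adjusted p = 2.45e-05) and 0.23 ± 0.15 in wild type (0.341). Over the radial glia and progenitor markers, the sum ran from 1960 to 2075 CPM in mutant TCDD, 1713 to 1899 in mutant DMSO, 1627 to 1879 in wild-type TCDD and 1744 to 1976 in wild-type DMSO libraries. Of the 11 tested, 3 were higher and 3 lower with TCDD in mutants, and 2 were lower in wild type. The fast muscle markers, a tissue outside the nervous system, summed to 28360 to 33910 CPM in mutant TCDD and 24560 to 26560 in mutant DMSO libraries. They summed to 28780 to 38200 in wild-type TCDD and 28650 to 34840 in wild-type DMSO libraries. Of the 14 tested, 6 were higher with TCDD in mutants and 3 in wild type. Between the lines in DMSO, 8 were lower and 1 was higher in mutants, where 16.8% of all tested genes were called. No marker was at 0 in any group. The part of these cell types in the values of the 10 genes was not tested.

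The authors' deposited tables, which list genes past their own threshold, hold 7 of the values above for TCDD in mutants, with log2 ratios of -1.10 for dcc, -1.48 for unc5b, -0.52 for ntn1a, -0.31 for slit2, 0.53 for robo1, 0.60 for robo3 and 0.37 for the second robo2 row. For TCDD in wild type, the authors' deposited table lists dcc (1.34) and robo3 (0.40). For mutant over wild type with TCDD it lists dcc (-1.40), unc5b (-1.44), ntn1a (0.39), neo1a (0.19) and robo2 (-0.31). For mutant over wild type in DMSO, the authors' deposited table lists dcc (1.04), ntn1a (0.91), slit2 (0.27) and neo1a (0.24), and does not list unc5b.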

How the data were processed

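RNA was sequenced from pools of whole embryos, per the labels' protocols as stranded, poly(A)-selected libraries read from 1 end at 100 bp. The authors deposited unnormalized counts of reads for each gene in 14 columns, all of them used. Per the submitters' processing notes, the tools named were HTSeq 0.12.4, HISAT2 2.2.0, cutadapt 1.8.1, edgeR and SAMtools 1.10, and the assembly GRCz11. The annotation release and strand setting are not given in the sources used here. The authors' deposited tables of 4 comparisons hold, per the file headers, log2 ratios, log2 mean CPM, p-values with FDR and an F score, for genes past the authors' threshold. They served for names and for the log2 ratios credited to them.

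Members and gene lists were chosen with earlier results of these data known. Symbols were matched through the authors' tables and otherwise a gene name table, which gave slit3. ntn1b is the ID named NTN1 there that the authors do not name ntn1a.

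edgeR 4.0.16 (R 4.3.3) fitted 1 mean per group over 14 libraries, after filterByExpr and TMM scaling. Its quasi-likelihood F test was run for TCDD in each line, for mutant over wild type at each exposure and for the TCDD effect in mutants minus that in wild type. The 20098 of 32520 genes tested held 99.9% of counts. Adjustment followed Benjamini and Hochberg, with calls under 0.05. Each SE was taken from the fold change and its F value, as log2 ratio divided by root F. The biological coefficient of variation was 0.151. Library totals of 20597475 to 26884477 put 3 counts at 0.110 to 0.145 CPM. Libraries of 1 group differed beyond counting noise. For the within-group axis, group means were subtracted from log2 CPM (prior count 2) of 15143 genes and the leading singular vector was kept. Library scores are projections without that subtraction.

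Named were all 10 genes, any gene of the list of other netrins, Slits and receptors, and of the other 8 lists up to 4 called genes of smallest adjusted p per comparison. Likeness names the 2 genes of highest Pearson correlation among the genes searched. Genes without a name, with a clone, contig or locus name, or with a name ending in a point and a number were left out of that search.

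Alternatives were RLE scaling, no filter, DESeq2 1.42.0, limma-voom (limma 3.58.1), a CPM minimum of 1 in 4 libraries and only the groups compared. Further ones were replicate numbers as a block, a term for low against high sequencing sample numbers, the library score as a term, and each of the 14 libraries left out. Of 19 pairs of libraries with the same replicate number, 5 had deviations correlated above 0.1 (range -0.357 to 0.326), so the numbers were not taken to pair libraries. On simulated counts for 20098 genes, the fit recovered 70.8% of 2-fold changes for TCDD in mutants, 69.7% for TCDD in wild type and 48.5% for the difference between these effects. Few genes were changed there, and counts were drawn without a shared axis, unlike in these data. The rates thus need not hold for these data. Gene lengths and sequences were not used here.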

Additional observations from a re-analysis of the deposited data

Results flagged for a closer look

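The TCDD effect in mutants minus that in wild type was past the threshold of the fit over all genes for dcc (-2.43), unc5b (-2.10) and robo1 (0.37). These genes were chosen with these counts in view, so this is a description and no test, and with the library score as a term none of the 3 passed. In mutant TCDD libraries, replicate 3 stood apart from the other 3 for dcc, at 6.30 CPM. In mutant DMSO libraries, replicate 2 stood apart for slit3, at 38.5 CPM. Such gaps were sought in 20 sets of 4 libraries, and chance gives about 1 in 20.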

How the results depend on the processing

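Counts of calls moved most with the library score as a term. Of the 10 genes it left 3 calls for TCDD in mutants, 1 for TCDD in wild type, 3 for mutant over wild type with TCDD, 2 in DMSO and 0 for the difference between the lines' TCDD effects (edgeR, 2 at an unadjusted p under 0.05), against 6, 2, 5, 5 and 3 as reported. Of the 19 other pathway genes it left 2, 4, 0, 1 and 0 in the same order (edgeR, 4 and 3 at an unadjusted p under 0.05 where the count was 0), against 10, 6, 6, 2 and 4, and the slit1a effect in mutants reversed to 0.0898. The share of all tested genes called with the score term is not given here. These losses are thus not read as particular to the 10 or the 19 genes. Fitting only the groups compared left 1 call of the 10 for TCDD in wild type and 2 for the lines in DMSO, where no filter left 3. The cause was not tested.

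The replicate numbers were not taken to pair the libraries. With the replicate number as a block, 2 of the 10 genes were called for the lines in DMSO. The other pairwise comparisons gave 6, 2 and 4 calls and the difference gave 2. Of the 50 values of the 10 genes, this block ended 5 calls and the score term 12, while DESeq2, limma-voom and the CPM filter added 1 each and RLE scaling moved none.

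With each library left out in turn, the 10 genes gave 6 to 7 calls for TCDD in mutants, 1 to 3 in wild type, 3 to 5 for the lines with TCDD, 2 to 5 in DMSO and 2 to 4 for the difference. The fewest came, for TCDD in wild type, without wild-type DMSO replicate 1 or wild-type TCDD replicate 3 or 4 (1 call), for the lines with TCDD, without wild-type TCDD replicate 3 or mutant TCDD replicate 2 or 3 (3 calls), and for the lines in DMSO, without wild-type DMSO replicate 4 (2 calls). The 19 other genes gave 7 to 10, 4 to 7, 5 to 7, 1 to 5 and 4 to 5 calls in the same order, with 1 in DMSO without wild-type DMSO replicate 4 and 5 without wild-type DMSO replicate 3. dcc stayed called in every one of these fits. Groups of 3 or 4 pools limit what small changes can be seen.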
